A study of Mus musculus with 9 samples.

Results

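Calcium handling in the mouse fetal heart was followed through 10 genes of excitation-contraction coupling, *Ryr2*, *Atp2a2*, *Pln*, *Sln*, *Casq1*, *Casq2*, *Cacna1c*, *Slc8a1*, *Trdn* and *Jph2*. They were chosen by name as the channels, pumps, stores and junction proteins of this pathway, and they were found as 10 of the 24571 gene symbols used here. The hearts were whole hearts of E18.5 embryos from C57BL/6N mice carrying the CTCF R567W substitution, which was introduced by CRISPR/Cas9 editing into the gene for the chromatin-binding protein CTCF. Wild-type embryos carried no mutant *Ctcf* allele, heterozygous embryos carried the substitution on a single allele, and homozygous embryos carried it on both, in every cell of the body. Each genotype had 3 RNA-seq libraries, and nothing in the labels says whether a library came from a single heart or from pooled hearts, so that p-values measure the spread between these libraries.

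Each heartbeat starts when an action potential opens L-type calcium channels in the cell membrane. The small calcium entry opens ryanodine receptors in the facing membrane of the sarcoplasmic reticulum, where calcium is held by calsequestrin, and the released calcium drives contraction. A calcium pump returns most of it to the reticulum under the control of the small inhibitors phospholamban and sarcolipin, and the sodium-calcium exchanger carries the rest out of the cell. In the fetal heart the reticulum and its junctions with the cell membrane are still being built.

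Among the 10 genes, only *Casq1*, the calsequestrin that prevails in skeletal muscle, passed the test, and its transcript level fell by 60.8% in homozygous relative to wild-type hearts. The call was close to the threshold (limma adjusted p 0.0464), held in 11 of 24 alternative settings and was lost when any of 6 of the 9 libraries was left out. *Casq2*, the cardiac calsequestrin, and the other 8 genes did not pass. Of 48 further genes of the pathway, the only gene called was *S100a1*, which encodes a calcium-binding regulator of the ryanodine receptor and the calcium pump. It was also lower in homozygous hearts, and 0.336% of all genes were called between these and wild-type hearts.

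Levels are given as TPM, a length-corrected transcript abundance scaled to a common total per library, so that levels can be compared between genes. In wild-type hearts the calcium pump gene *Atp2a2* had 1191 ± 200.0 TPM and its inhibitor *Pln* 1147 ± 188 TPM (SD, n = 3 here and for all group means below). *Casq2* followed with 477 ± 46.8 TPM, *Sln* with 455 ± 77.8 TPM and *Slc8a1* with 220 ± 52.4 TPM. Lower levels were those of *Jph2* with 112 ± 14.8 TPM, *Casq1* with 71.2 ± 11.7 TPM, *Ryr2* with 55.7 ± 14.3 TPM, *Cacna1c* with 33.5 ± 12.6 TPM and *Trdn* with 22.2 ± 4.57 TPM. In this order the values of *Atp2a2* and *Pln* overlapped, as did those of *Casq2* and *Sln*, and those of each neighbouring pair from *Casq1* to *Trdn*. The remaining steps, below *Pln*, *Sln*, *Slc8a1* and *Jph2*, were without overlap between libraries. In homozygous hearts *Casq1* took the ninth place instead of the seventh, below *Cacna1c* without overlap and overlapping *Trdn*. The 10 genes together amounted to 3097 to 4608 TPM per library, or 11.9% to 16% of the sum of 10 cardiomyocyte markers.

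**Figure D1:**
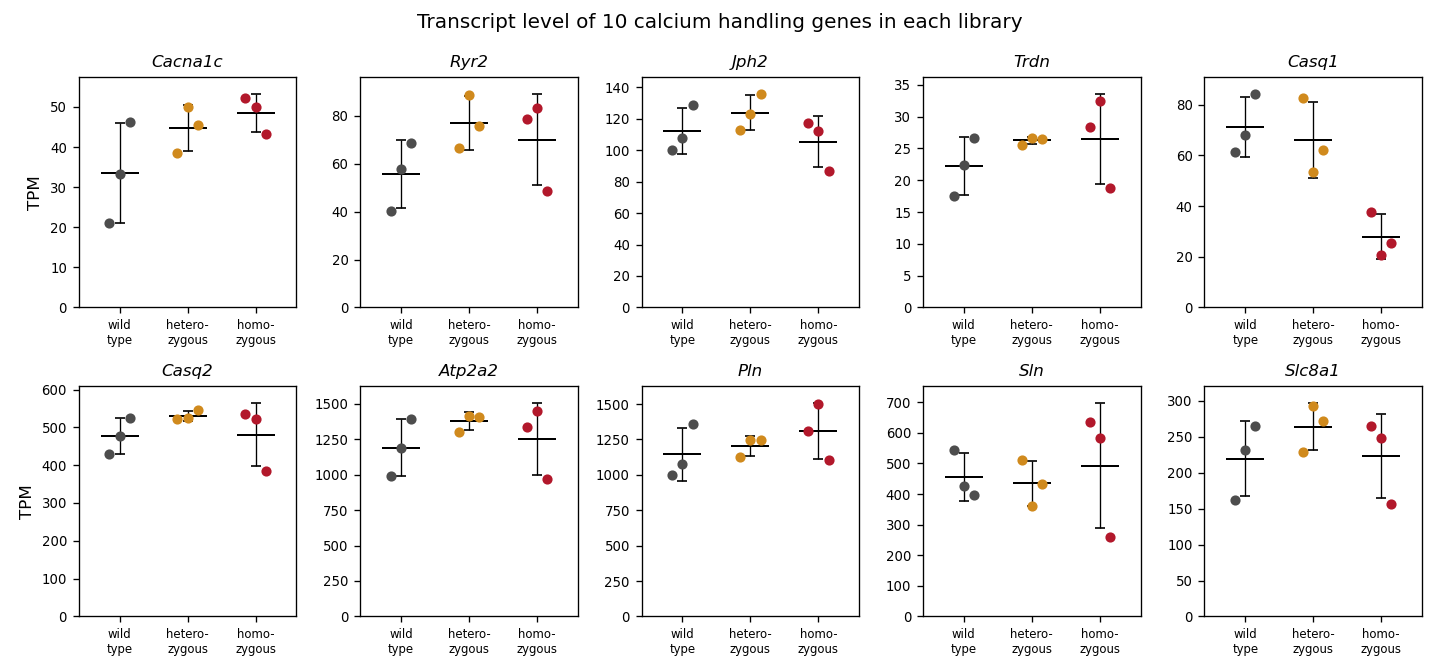
Transcript level in TPM (vertical axes, each from 0) of the 10 genes in the 3 libraries of each genotype, where points are libraries in the order of their replicate numbers, horizontal bars are means and whiskers are SD. The homozygous *Casq1* values lie between 20.6 and 37.85 TPM, below all others of that gene, while the genotypes overlap for the other 9 genes.

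Several libraries carried transcripts of other organs. Wild-type replicate 1 had 2619 TPM over 10 airway and lung markers, heterozygous replicate 1 had 1112 TPM of these and 4099 TPM over 12 liver markers, and homozygous replicate 3 had 582 TPM over 12 thymocyte markers. Apart from these values, the airway and lung, liver and thymocyte sums reached at most 57.2, 169 and 2.78 TPM. Within their groups, wild-type replicate 1 had the lowest level of 9 of the 10 genes, heterozygous replicate 1 of 8 and homozygous replicate 3 of 9. The part of the other organs in these levels was not tested, and results are also given below without these 3 libraries. In whole hearts, fewer cells of a type and less RNA per cell cannot be told apart. The sum of cardiomyocyte markers lay between 28238 and 33161 TPM for wild-type, between 31516 and 34740 TPM for heterozygous and between 24037 and 31842 TPM for homozygous libraries. Sex was not balanced, since *Xist* was at 87.8 TPM in wild-type replicate 1, at 112 to 146 TPM in the heterozygous libraries and at 123 TPM in homozygous replicate 1, and did not exceed 0.05 TPM in the rest.

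Over all genes, the changes of TPM between genotypes leaned upward, and the part of library scaling in this was not tested. The median log2 change of the 13682 genes tested, whose mean reached 1 TPM, was 0.23 for homozygous against wild-type hearts, and the median-ratio scaling of libraries reduced it to 0.02. The medians were 0.08 for homozygous against heterozygous and 0.15 for heterozygous against wild-type hearts. Log2 changes of TPM + 1 are therefore given relative to this median, which was subtracted, whereas SE and p-values come from limma's moderated test of the change as deposited, with Benjamini-Hochberg adjustment over all 13682 genes. All 10 members passed the filter on low values.

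Comparing homozygous with wild-type hearts addresses how transcripts differ when both alleles carry the mutation. At an adjusted p under 0.05, 1 of the 10 genes was called, *Casq1*, against 46 of all 13682 genes, or 0.336%. The groups were without overlap at the same gene alone, which was lower, against 24.7% of all genes (3053 genes higher and 326 lower). Of the 10, 2 had an unadjusted p under 0.05, against 25% of all genes. Relative to the all-gene median, 2 of the 10 genes were higher and 8 were lower, and the median of the 10 changes was −0.19. The number higher was 6 after quantile normalization. It was 1 without wild-type replicate 1, 3 without replicate 2 and 4 without replicate 3 of that genotype. It was 1 and 5 when homozygous replicates 2 and 3 were left out. The number thus depended on single libraries, and only without homozygous replicate 3 were most members other than *Casq1* higher. In homozygous against heterozygous hearts no member was called by limma, against 0.0439% of all genes. *Casq1* alone had groups without overlap and was lower, against 15.9% of all genes (1646 genes higher and 527 lower). It alone also had an unadjusted p under 0.05, against 7.15% of all genes. In heterozygous against wild-type hearts no member was called by limma, against 0.0146% of all genes, none had an unadjusted p under 0.05, against 6.87%, and none was without overlap, against 13.8% of all genes. The wild-type and homozygous libraries each serve in 2 of these comparisons, as do the heterozygous libraries, so the comparisons are not independent.

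**Figure D2:**
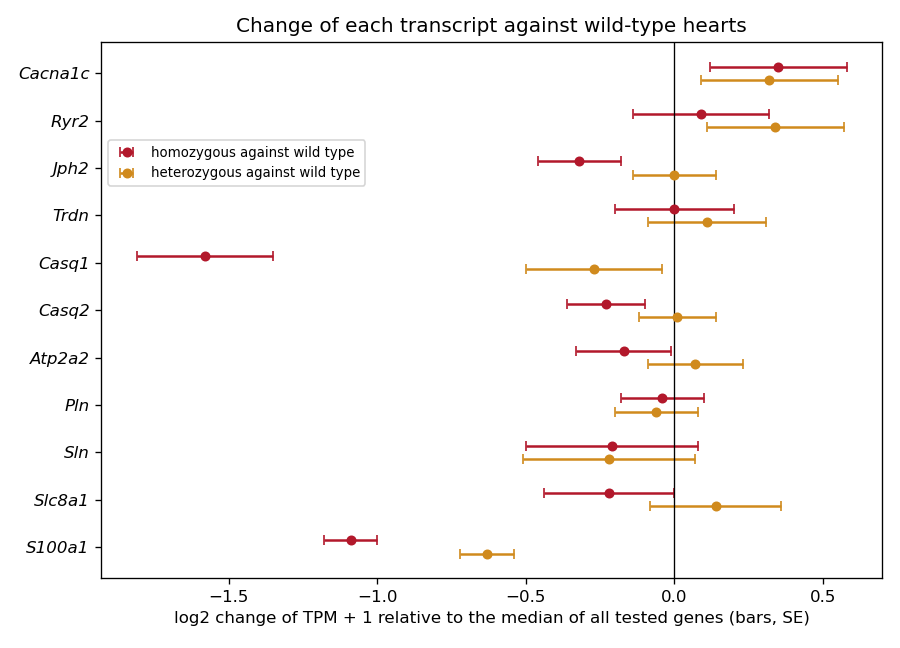
Log2 change of TPM + 1 against wild-type hearts relative to the median of all tested genes (horizontal axis), with SE bars, for the 10 genes and *S100a1* in homozygous (red) and heterozygous (orange) hearts. *Casq1* at −1.58 and *S100a1* at −1.09 in homozygous hearts stand furthest to the left, and the other homozygous changes lie between −0.32 and 0.35.

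Calsequestrin binds calcium inside the reticulum and is its main store. *Casq1* (chromosome 1, 172209894 to 172219868, minus strand, mm10) had 61.5, 68.1 and 84.2 TPM among wild-type, 82.8, 53.4 and 62.1 TPM among heterozygous and 37.85, 20.6 and 25.3 TPM among homozygous libraries. The highest homozygous value was below the lowest of the other 6 libraries, whereas heterozygous and wild-type values overlapped. The means were 71.2 ± 11.7, 66.1 ± 15.1 and 27.9 ± 8.90 TPM. Between homozygous and wild-type hearts the log2 change was −1.58 relative to all genes (SE 0.23, limma adjusted p 0.0464) and −1.35 as deposited. For homozygous against heterozygous hearts it was −1.31 relative to all genes and −1.23 as deposited (limma adjusted p 0.213). For heterozygous against wild-type hearts it was −0.27 relative to all genes and −0.12 as deposited (limma adjusted p 0.849).

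The size of this change was between −1.79 and −1.33 over 24 alternatives. Several of these could not move it, among them other variance models, a replicate block and the removal of a heterozygous library. The call was close to the threshold and held in 11 of the 24 alternatives. The adjusted p was 0.158 without the 3 libraries that carried other-organ transcripts. Leaving out single libraries gave 0.13 without wild-type replicate 1, 0.211 without replicate 2 of that genotype, 0.0699 without heterozygous replicate 2, 0.0944 without heterozygous replicate 3, 0.162 without homozygous replicate 2 and 0.0556 without homozygous replicate 3. Leaving out any of the other 3 libraries kept it between 0.0253 and 0.0496. With *Xist* as a covariate it was 0.0641.

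*Casq1* is a gene of fast skeletal muscle, so the levels of other muscle types were read beside it. The sum over 11 skeletal muscle markers was 14.4 to 29.4 TPM in wild-type and 16.2 to 19.6 TPM in homozygous libraries, with 4 of the 11 markers under 1 TPM in every library, and the skeletal isoforms *Ryr1*, *Atp2a1* and *Cacna1s* had means of 0.1, 0.277 and 0.433 TPM over the 9 libraries. In heterozygous libraries the skeletal muscle sum was 13.0 to 18.6 TPM. Within each library the *Casq1* level was above this sum, which describes levels only, and the source of the transcript was not tested. The sum of 6 ventricular markers was 17275 to 18974 TPM in wild-type and 14583 to 16582 TPM in homozygous libraries, without overlap. Most of it was *Myl2*, with means of 12691 TPM in wild-type and 10507 TPM in homozygous libraries. The sum of 7 smooth muscle markers was 1551 to 1584 and 886 to 1314 TPM, also without overlap. Of all single genes 24.7% were without overlap between these groups, 3053 of 13682 higher and 326 lower in homozygous hearts. The part of these muscle types in the *Casq1* change was not tested. Scaled to the sum of cardiomyocyte markers, the change of *Casq1* was −1.24 before subtraction of the all-gene median, with a limma adjusted p of 0.0156. That setting called 4060 of all genes, against 46 in the fit reported. Relative to all genes the change stayed at −1.58, since subtracting the median removes most of any factor common to a library. The antisense gene *Gm17224* shares part of the *Casq1* transcript, which had 5.03% of its 31-base words in other genes, and was at most 0.72 TPM in a library.

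*Casq2* (chromosome 3, 102086415 to 102146514, plus strand), the isoform that prevails in heart muscle, had 430.5, 477 and 524 TPM among wild-type, 521, 524 and 546 TPM among heterozygous and 534, 523 and 385 TPM among homozygous libraries. Homozygous and wild-type levels overlapped, with a change of −0.23 relative to all genes and −0.00 as deposited (SE 0.13, limma adjusted p 1). *Casq1* accordingly contributed 12.5%, 12.5% and 13.8% of the calsequestrin transcripts in wild-type, 13.7%, 9.26% and 10.2% in heterozygous and 6.62%, 3.8% and 6.17% in homozygous libraries. The homozygous shares were all below those of the other genotypes.

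Because *Casq1* was called and *Casq2* was not, the sequences around their starts are shown. Each runs over 300 bases across the transcription start, 5′ to 3′ on the strand of the gene, from RefSeq on GRCm38.p6, and capitals mark E-boxes (CANNTG), the letters bound by muscle bHLH factors among others. The first lies at chr1:172219846-172220145 on the minus strand and the next at chr3:102086165-102086464 on the plus strand.
Casq1: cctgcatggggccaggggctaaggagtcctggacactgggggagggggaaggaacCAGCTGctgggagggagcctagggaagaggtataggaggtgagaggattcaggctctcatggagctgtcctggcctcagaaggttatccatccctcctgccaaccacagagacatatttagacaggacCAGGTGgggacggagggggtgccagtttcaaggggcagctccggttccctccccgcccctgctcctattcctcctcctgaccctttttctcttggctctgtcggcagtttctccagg
Casq2: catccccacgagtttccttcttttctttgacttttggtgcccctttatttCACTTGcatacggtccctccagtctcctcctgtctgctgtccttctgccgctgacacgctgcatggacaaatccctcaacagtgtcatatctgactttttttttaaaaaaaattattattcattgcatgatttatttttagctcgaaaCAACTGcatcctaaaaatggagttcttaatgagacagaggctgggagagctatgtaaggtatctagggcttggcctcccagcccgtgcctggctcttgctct
Each promoter held 2 E-boxes, and *Casq1* was richer in G and C (60.3% against 44.7%). An E-box was found in 72.3% of all 32851 promoters of this length and in each of the 10 promoters listed for 7 of the members, while *Atp2a2*, *Sln* and *Trdn* had no entry. A MEF2 box was found in the *Casq2* promoter and in 3.19% of all promoters, TATAAA in that of *Pln* and in 13.6%, and the letters AGGGGGC, part of the core recognised by CTCF, in both listed promoters of *Jph2*, which overlap each other, and in 10.6%. A CArG box, present in 1.63%, was in none of the members' promoters. Both strands were searched, and a match describes letters only.

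Calcium entry and release were represented by 4 genes. *Cacna1c* (chromosome 6, 118587240 to 119196418, minus strand) encodes the pore of the L-type calcium channel of heart muscle. It had 21.04, 33.35 and 46.2 TPM among wild-type, 38.6, 50.1 and 45.4 TPM among heterozygous and 52.2, 50.0 and 43.3 TPM among homozygous libraries. The wild-type libraries spread most, with a coefficient of variation of 37.5%, and their highest value exceeded the lowest homozygous one. The change between homozygous and wild-type hearts was 0.35 relative to all genes and 0.58 as deposited (SE 0.23, limma adjusted p 0.164). Leaving out wild-type replicate 1 gave 0.12 relative to all genes. Leaving out wild-type replicate 3 gave 0.53 relative to all genes and 0.84 as deposited (limma adjusted p 0.0312). Without the 3 libraries that carried other-organ transcripts, the change was 0.15 relative to all genes and 0.37 as deposited (limma adjusted p 0.281).

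*Ryr2* (chromosome 13, 11553102 to 12106945, minus strand) encodes the calcium release channel of the cardiac reticulum. It had 40.35, 58.0 and 68.8 TPM among wild-type, 66.5, 88.7 and 75.75 TPM among heterozygous and 78.6, 83.3 and 48.45 TPM among homozygous libraries. Of the heterozygous libraries 2 were above all wild-type libraries, and the homozygous libraries overlapped both other groups. The heterozygous change against wild type was 0.34 relative to all genes and 0.48 as deposited (limma adjusted p 0.672). The homozygous change was 0.09 relative to all genes and 0.32 as deposited (limma adjusted p 0.385). Relative to all genes, the latter was 0.29 without homozygous replicate 3 and −0.07 without wild-type replicate 1. *Ryr2* supplied 92.3% to 96.8% of the ryanodine receptor transcripts of a library.

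*Jph2* (chromosome 2, 163336242 to 163397993, minus strand) encodes the junctophilin that ties the reticulum to the cell membrane. It had 100.2, 108 and 129 TPM among wild-type, 113, 123 and 136 TPM among heterozygous and 117, 112 and 86.8 TPM among homozygous libraries. All genotypes overlapped, and the homozygous change of −0.32 relative to all genes (−0.09 as deposited, limma adjusted p 0.686) was the lowest of the 9 genes that were not called. *Trdn* (chromosome 10, 33080554 to 33476709, plus strand) encodes triadin, which anchors calsequestrin to the release channel. It had 17.5, 22.4 and 26.6 TPM among wild-type, 25.6, 26.6 and 26.5 TPM among heterozygous and 28.3, 32.4 and 18.7 TPM among homozygous libraries. The heterozygous libraries were the closest to each other, with a coefficient of variation of 2.12%. The homozygous change was −0.00 relative to all genes and 0.23 as deposited (limma adjusted p 0.463).

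Return of calcium to the reticulum was represented by the pump and its inhibitors. *Atp2a2* (chromosome 5, 122453513 to 122502225, minus strand), which encodes the calcium pump SERCA, had 993, 1188 and 1393 TPM among wild-type, 1304, 1417 and 1409 TPM among heterozygous and 1337, 1451 and 967 TPM among homozygous libraries. The homozygous libraries covered the whole wild-type range, and the change was −0.17 relative to all genes and 0.06 as deposited (limma adjusted p 0.811). *Pln* (chromosome 10, 53337667 to 53345987, plus strand), which encodes the inhibitor phospholamban, had 1002, 1079 and 1359 TPM among wild-type, 1123, 1247 and 1248 TPM among heterozygous and 1312, 1504 and 1107 TPM among homozygous libraries. Its groups overlapped, with a change of −0.04 relative to all genes and 0.19 as deposited (limma adjusted p 0.380). *Pln* lies opposite *Cep85l* and *Gm47644* and had 59.5% of its 31-base words in other genes, mostly *Gm47644*. The use of strand in counting is not stated, so its level is uncertain by as much as these genes contribute. *Cep85l* was at most 6.39 TPM, and *Gm47644* was not among the symbols used here, so its level cannot be given.

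*Sln* (chromosome 9, 53850164 to 53854560, plus strand) encodes sarcolipin, the pump inhibitor of the atria. It had 544, 426 and 397 TPM among wild-type, 510.0, 361 and 433 TPM among heterozygous and 636, 583 and 259 TPM among homozygous libraries. The homozygous libraries held both the highest values and the lowest value, with a coefficient of variation of 41.4%. The sum of 7 atrial markers was 11236, 9602 and 4733 TPM in the same 3 libraries and 8243 to 9932 TPM in the other 6, so the library with the least *Sln* also had the lowest atrial sum. The part of the atrial share of the tissue was not tested. The homozygous change of *Sln* was −0.21 relative to all genes and 0.02 as deposited (limma adjusted p 0.968). Without homozygous replicate 3 it was 0.15 relative to all genes.

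*Slc8a1* (chromosome 17, 81373105 to 81738377, minus strand) encodes the sodium-calcium exchanger, which removes calcium from the cell. It had 162, 231 and 265 TPM among wild-type, 229, 293 and 272 TPM among heterozygous and 266, 248 and 156 TPM among homozygous libraries. Wild-type and homozygous libraries covered nearly the same range, with a change of −0.22 relative to all genes and 0.01 as deposited (SE 0.22, limma adjusted p 0.971). It made up 98.5% to 99.4% of the transcripts of its family.

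**Figure D3:**
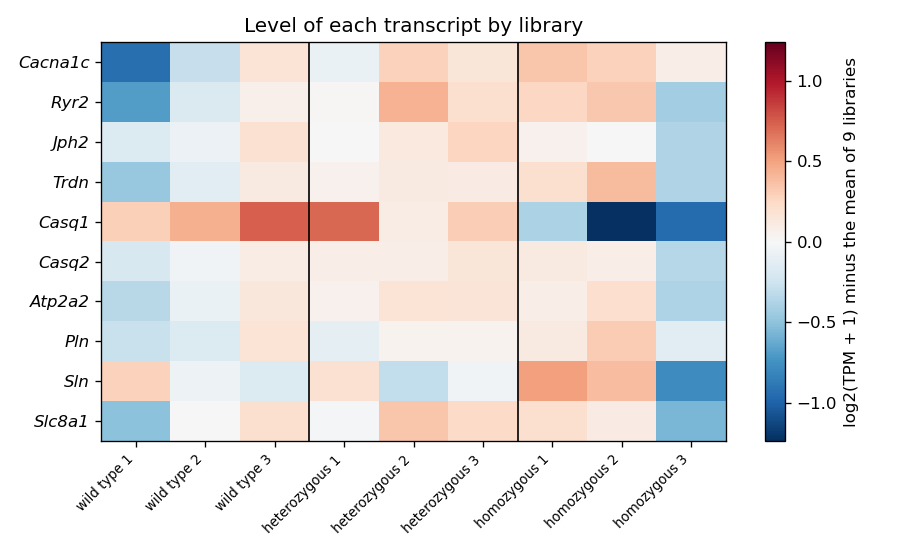
Level of each of the 10 genes (rows) in each library (columns) as log2(TPM + 1) minus the mean of the 9 libraries, with blue below and red above that mean. Most rows are lowest in wild-type replicate 1 or homozygous replicate 3, whereas the *Casq1* row is lowest in the homozygous libraries.

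For a description of how the members varied from library to library, *Casq1* and *Sln* were set apart from the other 8 genes. No rule fixed this split in advance, so the contrast between the sets below is partly made by it and is no evidence. Over the 9 libraries the Pearson correlations of log2 values among these 8 genes were 0.44 to 0.96, with a median of 0.85 over 28 pairs. *Casq1* correlated with the 8 at −0.38 to 0.45 (median 0.01) and *Sln* at −0.13 to 0.53 (median 0.30). The values of a library share its scaling, the sex of its embryo and any admixed organ, and the correlations carry no test. Correlations within sets of other genes were not computed for comparison. Wild-type replicate 1 had the lowest level of all 9 libraries for 4 of the 10 genes, and homozygous replicate 3 for 5.

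The genes most like each member were sought among the 9952 genes whose mean reached 5 TPM, by the Pearson correlation over the same 9 libraries. For *Casq1* they were *Blvra*, *Myl2*, the ventricular regulatory myosin light chain, and *Acta1*, the skeletal actin (0.97 each). For *Sln* they were the atrial myosin light chains *Myl7* and *Myl4* and *Dynlrb1* (0.98 each). For *Jph2* the nearest was *Des*, the muscle intermediate filament desmin (0.99), followed by *Gys1* and *Ecsit* (0.98 each). The nearest of the remaining genes were *Tmem134*, *Fnip1* and *Tln2* for *Ryr2*, *Adamts9*, *Acsl1* and *Nomo1* for *Atp2a2*, and *Phka2*, *Aktip* and *Dpagt1* for *Pln*, at 0.97 to 0.99. They were *Ubxn2a*, *Atp1b1* and *Nomo1* for *Casq2*, *Wnk1*, *Gm38394* and *Mgat5* for *Cacna1c*, *Insr*, *Phka1* and *Cacna2d1* for *Slc8a1*, and *Ptprk*, *Emc1* and *Grb10* for *Trdn*, again at 0.97 to 0.99. Each of these values is among the highest of 9952 correlations over 9 libraries and is given as a description.

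Ratios between transcripts of the same library do not depend on its scaling. For 9 ratios and 3 comparisons the exact two-sided permutation test over libraries was used, which cannot go below 0.1 for 3 against 3 libraries, and no ratio could therefore pass. The *Casq1* to *Casq2* ratio was 0.143, 0.143 and 0.161 in wild-type, 0.159, 0.102 and 0.114 in heterozygous and 0.0708, 0.0395 and 0.0658 in homozygous libraries. The homozygous ratios were below all others, at 0.383 of the wild-type ratio in geometric mean (exact permutation p 0.1, 0.3 adjusted over 27 tests). Without homozygous replicate 2 the log2 difference was −1.12 instead of −1.38, and without the 3 libraries with other-organ transcripts it was −1.52.

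The *Ryr2* to *Atp2a2* ratio sets the release channel against the pump. It was 0.0407, 0.0488 and 0.0494 in wild-type, 0.051, 0.0626 and 0.0538 in heterozygous and 0.0588, 0.0574 and 0.0501 in homozygous libraries. Both mutant genotypes were above wild type without overlap, by narrow gaps, with log2 differences of 0.27 and 0.26. The *Jph2* to *Ryr2* ratio was 2.48, 1.86 and 1.87 in wild-type, 1.7, 1.39 and 1.79 in heterozygous and 1.49, 1.35 and 1.79 in homozygous libraries. Both mutant genotypes were below wild type without overlap, with log2 differences of −0.34 and −0.42. Each of these 4 differences had an exact permutation p of 0.1 and 0.3 after adjustment.

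The *Pln* to *Atp2a2* ratio, the inhibitor per pump transcript, was 1.01, 0.909 and 0.975 in wild-type, 0.862, 0.88 and 0.886 in heterozygous and 0.981, 1.04 and 1.15 in homozygous libraries. Heterozygous libraries were below both other genotypes without overlap (log2 difference of −0.14 against wild type, and of 0.26 for homozygous against heterozygous, exact permutation p 0.1 and adjusted 0.3 each), while homozygous and wild-type values overlapped. The *Ryr2* to *Cacna1c* ratio was also without overlap between homozygous and heterozygous libraries, with a log2 difference of −0.29. In the remaining 18 of the 27 comparisons of ratios the groups overlapped, among them all those of *Sln* with *Atp2a2* or *Pln*, of *Trdn* with *Casq2* and of *Slc8a1* with *Atp2a2*. The share without overlap was not computed for ratios of other genes. For single genes it was 24.7% in homozygous against wild-type, 15.9% in homozygous against heterozygous and 13.8% in heterozygous against wild-type hearts. Ratios that share a gene are not independent of each other.

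**Figure D4:**
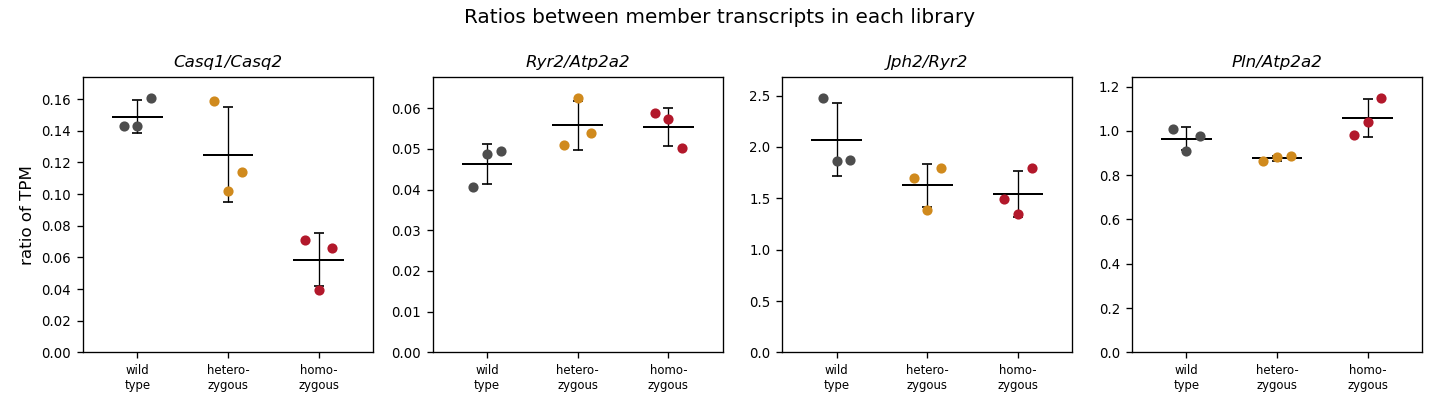
Ratio of TPM between transcripts of the same library (vertical axes, each from 0) in the 3 libraries of each genotype, where points are libraries, horizontal bars are means and whiskers are SD. The homozygous *Casq1* to *Casq2* ratios, 0.0395 to 0.0708, are separated from the rest by the widest gap, while the other 3 ratios differ by at most 0.42 on the log2 scale.

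The wider pathway was read from a list of 57 further genes, of which 56 were in the table and 48 passed the filter on low values. In homozygous against wild-type hearts 1 of the 48 was called, lower, against 0.336% of all genes. Without overlap, 10 were higher and 2 lower, a share near the 24.7% of all genes (3053 genes higher and 326 lower). The median change of the 48 genes was −0.02 relative to all genes. An unadjusted p under 0.05 was reached by 7 of the 48 (14.6%), below the 25% of all genes. None was called by limma in homozygous against heterozygous hearts, against 0.0439% of all genes, where 5 (10.4%) had an unadjusted p under 0.05 against 7.15%. None was called in heterozygous against wild-type hearts either, against 0.0146% of all genes, where 6 (12.5%) had an unadjusted p under 0.05 against 6.87%. By role, the changes without overlap between homozygous and wild-type hearts were 3 higher and 1 lower of 12 release channels and their regulators, 1 higher of 4 pumps and pump regulators, 1 higher and 1 lower of 9 store and junction genes, 3 higher of 13 genes of calcium entry, none of 4 genes of calcium extrusion and 2 higher of 6 genes of mitochondrial calcium transport.

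*S100a1* (chromosome 3, 90511034 to 90514392, minus strand) was the gene called. It had 295, 271 and 316 TPM among wild-type, 210.3, 208 and 209 TPM among heterozygous and 164.4, 164.3 and 156 TPM among homozygous libraries. The 3 genotypes were ordered by the number of mutant alleles without overlap, and the heterozygous and homozygous libraries lay close together within their groups. The share of all genes with such an order was not computed. In single comparisons 13.8% to 24.7% of all genes were without overlap. The means were 294 ± 22.2, 209 ± 0.966 and 162 ± 4.56 TPM. The change between homozygous and wild-type hearts was −1.09 relative to all genes and −0.86 as deposited (SE 0.09, limma adjusted p 0.00299), and the call held in 23 of 24 alternatives. It was lost without the 3 libraries with other-organ transcripts, where the change was −1.05 and the adjusted p 0.0711. For heterozygous against wild-type hearts the change was −0.63 relative to all genes and −0.49 as deposited (limma adjusted p 0.502). For homozygous against heterozygous hearts it was −0.45 relative to all genes and −0.37 as deposited (limma adjusted p 0.416).

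Of the other genes without overlap between homozygous and wild-type hearts, those with the largest changes as deposited are described. *Ryr3*, a minor ryanodine receptor of the heart, had 1.97, 2.12 and 2.24 TPM among wild-type, 5.54, 3.30 and 5.04 TPM among heterozygous and 5.85, 5.77 and 3.33 TPM among homozygous libraries. Both mutant genotypes were above wild type without overlap, with a homozygous change of 0.68 relative to all genes and 0.91 as deposited (limma adjusted p 0.0986). *Ryr3* gave 3.78% ± 0.779 of ryanodine receptor transcripts in wild-type, 5.83% ± 2.08 in heterozygous and 6.59% ± 0.293 in homozygous hearts. *Itpr3*, an inositol trisphosphate receptor, had 2.90, 3.12 and 2.80 TPM among wild-type and 4.85, 5.03 and 5.34 TPM among homozygous libraries (adjusted p 0.0983). *Cacna1h*, a T-type calcium channel of the fetal heart, had 25.8, 25.4 and 29.1 TPM among wild-type and 40.7, 56.0 and 31.1 TPM among homozygous libraries, with a change of 0.38 relative to all genes (adjusted p 0.129).

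*Sypl2*, a membrane protein of the skeletal muscle triad, was lower without overlap, with 1.05, 1.24 and 1.65 TPM among wild-type and 0.81, 0.23 and 0.55 TPM among homozygous libraries (adjusted p 0.182). *Tmem38b*, *Cacnb3* and *Bin1* had changes of 0.07, 0.03 and 0.03 relative to all genes. As deposited these were 0.30, 0.27 and 0.26, with limma adjusted p of 0.270, 0.323 and 0.253. Among the isoform relatives of the members, *Jph1* was at 4.49 to 6.66 TPM over the 9 libraries, with overlapping groups. *Atp2a3* was at 2.10 to 4.29 TPM in 8 libraries and at 30.15 TPM in homozygous replicate 3, the library with thymocyte transcripts. *Atp2a2* nevertheless made up at least 96.9% of the pump transcripts in each library.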

How the data were processed

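Poly-A-selected RNA of E18.5 hearts was sequenced by the authors, with adapter trimming in Trim Galore (v0.6.10), alignment against mm10 in STAR (v2.7.4a) and gene quantification in RSEM (v1.2.28). Strand use and annotation release are not given in the sources used here. The deposited table holds TPM for 24597 symbols in 9 libraries. TPM keeps no depth, so the counting error is unknown and only the spread between libraries measures precision. The 26 symbols turned into dates were left out.

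Genes whose mean reached 1 TPM were taken to the scale log2(TPM + 1). All 9 libraries entered a single limma (v3.58.1, eBayes with trend) fit of genotype in R (v4.3.3). The fit was also run on simulated data with independent noise per gene. That run cannot speak for effects shared by the genes of a library, such as scaling or admixed organs. Tests were two-sided, at a Benjamini-Hochberg adjusted p under 0.05. Ratios were tested with scipy (v1.17.1). The members and lists were chosen with earlier results of these data known. The 10 members were described whatever their values. Other pathway genes were named if called, if among the 8 largest log2 changes as deposited without overlap between homozygous and wild-type hearts, or if among 6 isoform relatives (*Ryr1*, *Ryr3*, *Atp2a1*, *Atp2a3*, *Jph1* and *Cacna1s*). Coordinates came from GENCODE M21 on mm10, which may not be the release used in counting, and promoters from RefSeq.

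Alternatives were pseudocounts of 0.1 and 5, no filter, a mean of at least 5 TPM, other scalings, other variance models, library weights, the compared groups alone, a replicate block, an *Xist* covariate and the removal of libraries. Scaling to cardiomyocyte markers was chosen after the data were examined.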

Additional observations from a re-analysis of the deposited data

How the results depend on the processing

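The count of members called between homozygous and wild-type hearts was 1 in the fit reported and rested on *Casq1*. It was 0 with a pseudocount of 5, without a filter, without the trend, with only the compared groups, with *Xist* as a covariate and without the 3 libraries with other-organ transcripts. It was 2 after scaling to cardiomyocyte markers, which added *Cacna1c* and called 4060 of all genes, and 7 with arrayWeights, which called 8755 of all genes. Leaving out single libraries gave 0 to 2, with 13 to 2170 of all genes called. arrayWeights gave 1 member, *Casq1*, between homozygous and heterozygous hearts and 2, *Cacna1c* and *Ryr2*, between heterozygous and wild-type hearts, where other settings gave 0. With a replicate block 0 members were called in each comparison. Same-numbered libraries deviated from their group means with correlations of −0.03 to 0.36, so the numbers were not taken as pairs. Over all genes the calls spanned 11 to 8755, 0 to 234 and 0 to 4425 in the 3 comparisons, and the cause of this spread was not tested.

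Relative to all genes, the homozygous changes of *Casq1*, *Cacna1c*, *Slc8a1* and *Jph2* kept their direction throughout. That of *Ryr2* spanned −0.07 to 0.29 without single libraries, *Pln* −0.10 to 0.03, *Sln* −0.42 to 0.15 and *Trdn* −0.12 to 0.18. Quantile normalization turned *Atp2a2* to 0.08, *Pln* to 0.24, *Sln* to 0.07 and *Casq2* to 0.04. A pseudocount of 5 turned *Pln* to 0.03 and *Trdn* to 0.04, and the lack of a filter turned them to 0.08 and 0.12. arrayWeights turned *Sln* to 0.17 and *Trdn* to 0.03. Without the 3 libraries *Sln* stood at 0.34 and *Trdn* at 0.08. *Trdn* was at 0.01 with a mean of at least 5 TPM or cardiomyocyte scaling and at 0.00 with *Xist*.

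Without the 3 libraries the homozygous log2 ratio against wild type was 0.45 for *Sln* to *Atp2a2* and 0.35 for *Sln* to *Pln*, and against heterozygous hearts it was 0.45 for *Sln* to *Pln* and 0.00 for *Ryr2* to *Atp2a2*. Without single libraries, *Sln* to *Atp2a2* spanned −0.26 to 0.22 and *Slc8a1* to *Atp2a2* −0.14 to 0.02 in homozygous against wild-type hearts. *Sln* to *Pln* spanned −0.40 to 0.13, −0.25 to 0.28 and −0.37 to 0.07 in the 3 comparisons. *Ryr2* to *Atp2a2* spanned −0.07 to 0.08 and *Jph2* to *Ryr2* −0.19 to 0.02 in homozygous against heterozygous hearts, and *Ryr2* to *Cacna1c* −0.09 to 0.10 and *Slc8a1* to *Atp2a2* −0.01 to 0.13 in heterozygous against wild-type hearts. The causes were not tested. The *Casq1* to *Casq2* ratio kept its direction under every alternative run.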
